A study of Mus musculus with 20 samples.

Results

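The glycolytic enzymes described here are 10 genes of the deposited expression table, chosen by symbol: Hk1, Hk2, Gpi1, Pfkl, Aldoa, Tpi1, Pgk1, Pgam1, Eno1 and Ldha. The table has 45802 gene rows, of which 11807 were tested, and all 10 enzymes had a value in each of the 20 libraries and passed the filter on low values. They were chosen by name and not by a threshold on a measured value, although earlier results of these data were known when they were chosen. Each library is the poly(A) RNA of 1 fetal mouse liver at stage E17.5, taken after the pregnant dam had been fasted for 24 h, on the background labelled C57BL/6. There were 5 groups of 4 fetuses, 2 female and 2 male in each. In HetDam_HetFetus, the control, dam and fetus were labelled Ppar-alpha Heterozygote, so this group is not wild type at Ppara. In KODam_HetFetus the dam was labelled Ppar-alpha Knockout and the fetus Ppar-alpha Heterozygote, and in KODam_KOFetus both were labelled Ppar-alpha Knockout. In FloxDam_FloxFetus dam and fetus were labelled Cpt2f/f, which the sample titles call WT, and in Cpt2LKODam_FloxFetus the dam was labelled Cpt2f/f; Albumin-Cre, a Cre driven in hepatocytes, with a Cpt2f/f fetus. Ppara is a nuclear receptor that turns on fatty acid oxidation genes in the fasted liver, and Cpt2 is a mitochondrial enzyme needed to oxidise long-chain fatty acids. The design asks how the fetal liver responds when the fasting dam cannot mount a normal fat oxidation programme, and, for Ppara, whether the fetus's own genotype adds to that.

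Glycolysis splits glucose into pyruvate in the cytosol and gives ATP without oxygen. Hexokinases trap glucose in the cell as glucose 6-phosphate, Gpi1 isomerises it, and Pfkl, the liver-type phosphofructokinase, commits it to the pathway. Aldoa cleaves the resulting bisphosphate, Tpi1 interconverts the triose products, Pgk1 makes ATP from them, and Pgam1 and Eno1 carry them on towards pyruvate, which Ldha reduces to lactate. Many of these genes are known targets of HIF-1, the transcription factor of low oxygen. The fetal liver is both a hepatocyte organ and a site of blood formation, and dividing blood cell precursors carry out glycolysis too.

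All values are log2 values that the authors had quantile normalized. The sources used here do not say what was measured before taking logs, so a difference between libraries can be read as a fold but levels of different genes are not compared. The depth of the libraries is unknown. Summed hepatocyte markers were high in every library (63887 to 121615 on the linear scale, 15 genes) and so were erythroid markers (170602 to 235013, 13 genes), as the label fetal liver requires. Ppara transcript lay between 1.87 and 2.48 in KODam_KOFetus, between 1.81 and 3.22 in KODam_HetFetus and between 2.86 and 3.47 in HetDam_HetFetus, so the knockout fetuses were not set apart from the heterozygous fetuses of knockout dams by this value. Which exons the allele removes is not given in the labels. Cpt2 in fetal liver checks nothing about the dam's liver. A set of 3 libraries carried transcripts of neighbouring tissues at over 10 times the median of the libraries: HetDam_HetFetus replicate 4 with skeletal muscle markers (12.1 times, 14 genes), KODam_KOFetus replicate 2 with the same markers (17.1 times) and Cpt2LKODam_FloxFetus replicate 2 with exocrine pancreas markers (18.8 times, 12 genes).

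A core sequence bound by HIF-1, ACGTG, was searched on either strand in the 250 bases before each transcription start that RefSeq gives for these genes on build GRCm38.p6. The longer palindrome CACGTG holds ACGTG on both strands and was counted within it. ACGTG lay before at least 1 start of 5 of the 10 enzymes (50.0%): Hk2, Aldoa, Pgk1, Pgam1 and Ldha. Of all 27025 genes with a promoter in the same table, 4998 (18.5%) had it. Counted by window, 6 of the 16 windows of the enzymes (37.5%) held it, against 5444 of 32851 windows of all genes (16.6%). The Aldoa windows among the 6 overlap and hold the same site, which is thus counted more than once. A match describes the letters only and is no evidence of binding in these livers.

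Of these promoters 4 follow, those of Hk2 and Aldoa, whose transcripts passed the test in the maternal Ppara comparison, and those of Pgk1 and Ldha, whose transcripts did not. Each runs 5′ to 3′ along the gene's strand and ends at the base before the start, with each ACGTG or its reverse complement CACGT in capitals.
Hk2, chr6:82774455-82774704, minus strand: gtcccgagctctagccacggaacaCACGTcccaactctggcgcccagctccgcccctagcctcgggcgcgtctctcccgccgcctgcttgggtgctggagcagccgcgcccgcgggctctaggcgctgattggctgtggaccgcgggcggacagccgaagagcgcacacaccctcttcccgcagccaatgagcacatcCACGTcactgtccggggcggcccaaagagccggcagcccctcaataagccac
Aldoa, chr7:126799255-126799504, minus strand: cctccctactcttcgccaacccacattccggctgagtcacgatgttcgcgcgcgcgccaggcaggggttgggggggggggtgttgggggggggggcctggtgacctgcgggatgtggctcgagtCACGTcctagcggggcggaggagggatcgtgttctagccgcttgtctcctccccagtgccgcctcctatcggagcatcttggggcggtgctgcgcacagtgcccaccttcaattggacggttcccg
Pgk1, chrX:106186850-106187099, plus strand: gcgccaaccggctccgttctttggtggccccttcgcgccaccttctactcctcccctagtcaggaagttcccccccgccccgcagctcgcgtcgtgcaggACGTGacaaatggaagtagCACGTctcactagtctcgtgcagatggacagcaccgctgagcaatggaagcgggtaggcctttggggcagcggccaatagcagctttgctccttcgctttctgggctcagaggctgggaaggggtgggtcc
Ldha, chr7:46845554-46845803, plus strand: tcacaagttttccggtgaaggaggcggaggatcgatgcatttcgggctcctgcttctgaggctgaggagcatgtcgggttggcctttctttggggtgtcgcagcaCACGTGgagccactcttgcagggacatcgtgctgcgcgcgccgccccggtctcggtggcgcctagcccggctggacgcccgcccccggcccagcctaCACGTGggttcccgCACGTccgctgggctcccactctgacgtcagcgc
The first letter of the capitals lay 226 and 52 bases before the start in Hk2, 126 bases before it in Aldoa and 150 and 131 bases before it in Pgk1. Ldha had 3 such stretches, of which 2 were CACGTG, and the window shown is that of 1 of its 2 RefSeq starts. The first bases after that start were not found in a GENCODE transcript of Ldha, whereas those after the other start were, and the window before the other start held no ACGTG. The single start of Pgam1 was likewise not found, so 3 of the 5 enzymes with ACGTG, Hk2, Aldoa and Pgk1, had it before a start whose following bases were found there. Aldoa has 3 RefSeq starts, and the window shown is that of 1 of them. The window before another of its starts held no ACGTG.

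In the livers of heterozygous fetuses, the transcripts of 2 of the 10 enzymes, Hk2 and Aldoa, fell when the dam lacked Ppara, and no enzyme rose. Both calls depended on single libraries, as given below. The comparison is KODam_HetFetus against HetDam_HetFetus, tested with limma over all 11800 genes with an estimate, two-sided, with Benjamini-Hochberg adjustment and calls at an adjusted p under 0.05. It called 39.0% of all tested genes, 26.4% higher and 12.6% lower, so a share of 2 in 10 enzymes called lower is read against 12.6%. At an unadjusted p under 0.05 there were 4 of the 10 enzymes, against 5679 of all 11800 tested genes. The estimate was negative for 9 of 10. The median log2 fold change of the 10 enzymes was -0.36, against 0.14 for all tested genes. In bulk tissue, fewer cells of a type that holds a transcript and less of that transcript per cell cannot be told apart.

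**Figure D1:**
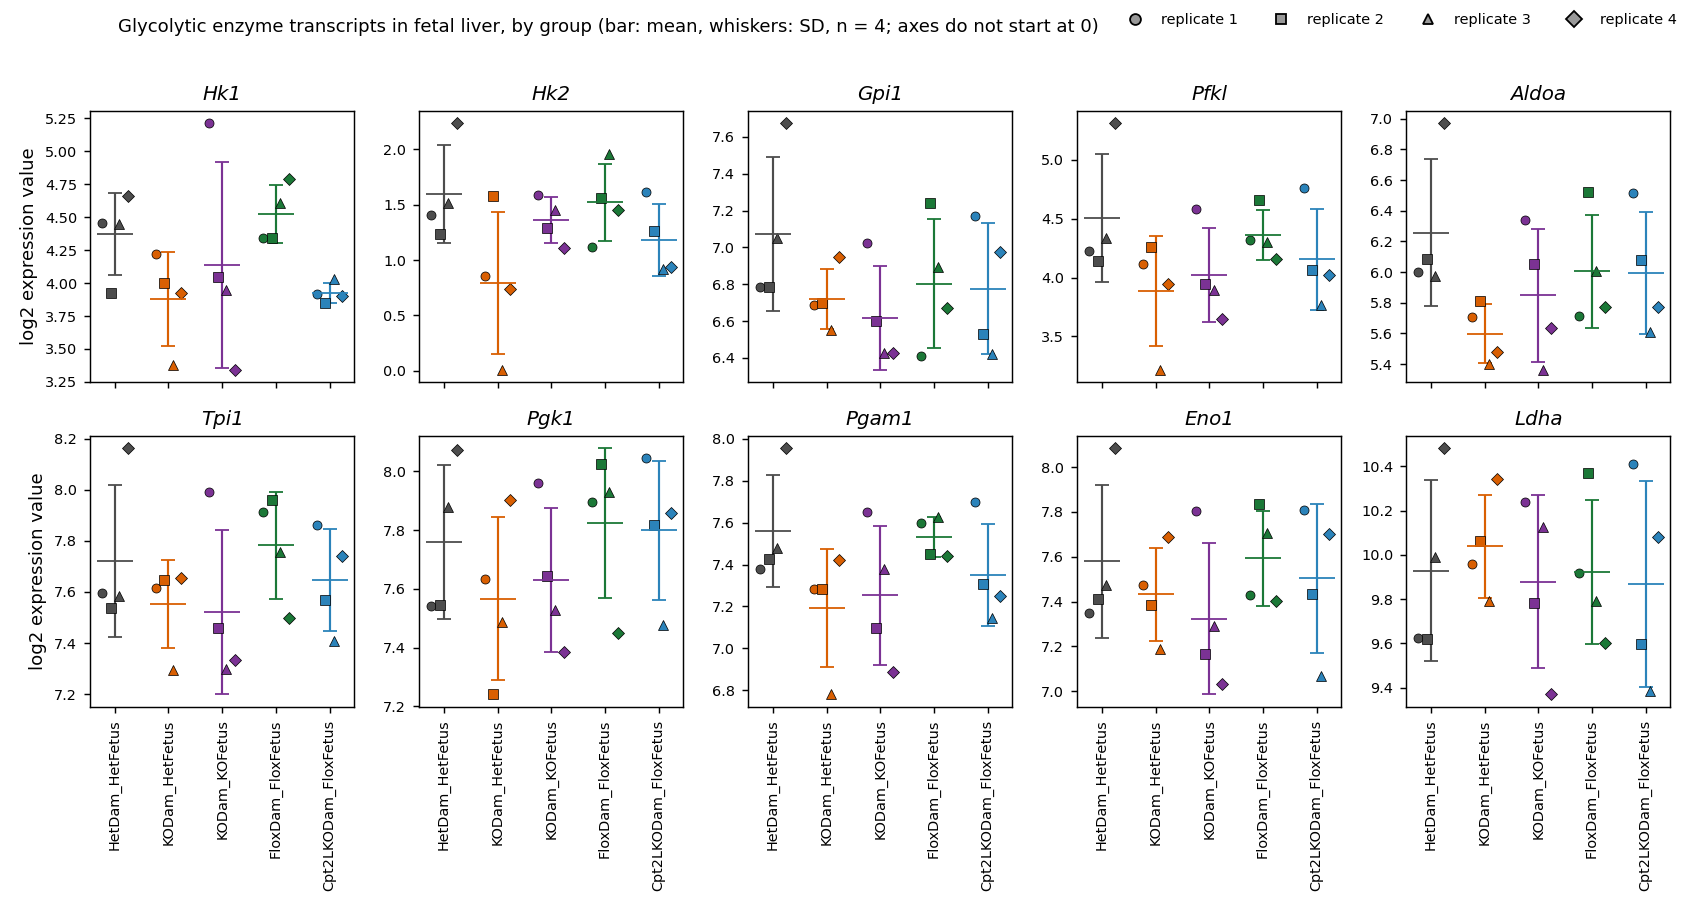
Log2 expression value of each enzyme in the 20 libraries by group, with the group mean (bar) and SD (whiskers), n = 4 fetuses per group; marker shapes give the replicate and axes do not start at 0. The diamond of HetDam_HetFetus, replicate 4, is the highest of its group in all 10 panels, and KODam_HetFetus has the lowest group mean in 6 of them.

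Hk2, the inducible hexokinase, read 1.41, 1.24, 1.52 and 2.24 in HetDam_HetFetus replicates 1 to 4. In KODam_HetFetus it read 0.86, 1.58, 0.010 and 0.74. Replicate 2 of the knockout dams lay inside the range of the controls, and replicate 3 lay below every other library of the series. The log2 fold change was -0.80 ± 0.278 (SE), a fold of 0.574, with an adjusted p of 0.0286 by limma, and 7.78% of tested genes had a lower value. These values are close to the filter for low expression, and adding a pseudocount of 1 or 4 to the linear values gave -0.54 and -0.28, which still passed the test.

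Aldoa, the aldolase of muscle and blood cells, read 6.00, 6.08, 5.98 and 6.97 in HetDam_HetFetus. In KODam_HetFetus it read 5.71, 5.81, 5.40 and 5.48. The groups did not overlap, which was also true of 36.3% of all tested genes. The log2 fold change was -0.66 ± 0.250 (SE), a fold of 0.633, with an adjusted p of 0.0432 by limma. The highest control, replicate 4, stood 0.887 above the next, while the other 3 controls lay within 0.107 of each other.

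The remaining 8 enzymes did not pass the test. Hk1, the hexokinase of most tissues, averaged 4.37 ± 0.312 (SD, n = 4) in HetDam_HetFetus and 3.88 ± 0.356 in KODam_HetFetus, a log2 fold change of -0.49 ± 0.273 (SE) with an adjusted p of 0.160 by limma. Pfkl averaged 4.50 ± 0.544 and 3.89 ± 0.464, a difference of -0.62 ± 0.274 (SE) with an adjusted p of 0.0816 by limma. Its lowest library of the series was again KODam_HetFetus replicate 3, at 3.22. Gpi1 differed by -0.35 ± 0.214 (SE) and Pgam1, the phosphoglycerate mutase of most tissues, by -0.37 ± 0.172 (SE), with adjusted p of 0.200 and 0.0972 by limma. All of these groups overlapped.

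Tpi1, Pgk1 and Eno1 had smaller estimates. The log2 fold change was -0.17 ± 0.167 (SE) for Tpi1, -0.19 ± 0.172 (SE) for Pgk1 and -0.15 ± 0.194 (SE) for Eno1, with adjusted p from 0.388 to 0.575 by limma. Ldha read 9.62, 9.62, 9.99 and 10.5 in HetDam_HetFetus and 9.96, 10.1, 9.79 and 10.3 in KODam_HetFetus. It was the enzyme with a positive estimate, 0.11 ± 0.242 (SE), with a 95% interval from -0.40 to 0.62 and an adjusted p of 0.746 by limma. A p that misses the threshold does not show that these transcripts were equal: the 95% intervals of the enzymes not called reach from -1.19 for Pfkl to 0.62 for Ldha.

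HetDam_HetFetus replicate 4 weighed on every one of these differences. It was the highest of its group for all 10 enzymes and the highest of all 20 libraries for 9 of them, the exception being Hk1. Averaged over the 10 enzymes, each centred on its mean over the libraries, it stood at 0.71, while the other 3 controls stood at -0.017, -0.082 and 0.12. Without it no enzyme was called: Hk2 was at -0.59 with an adjusted p of 0.107 by limma, Aldoa at -0.42 with 0.170, and the median of the 10 enzymes at -0.19. Genes called over all tested genes without it came to 4048, against 4600 with it. Leaving out KODam_HetFetus replicate 1, 3 or 4 in its place also left no enzyme called, with Hk2 at -0.82, -0.54 and -0.78 and Aldoa at -0.70, -0.59 and -0.62. Leaving out HetDam_HetFetus replicate 2 left Hk2 alone, with Aldoa at an adjusted p of 0.0533 by limma.

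The same control library carried the skeletal muscle transcripts. Of the muscle-type enzymes of the pathway, Pgam2 read 1.99 there, against -0.20 to 0.36 in the other 3 controls, and Eno3 read 2.16, against 1.18 to 1.59. KODam_KOFetus replicate 2, which had more of the muscle markers, read 2.58 for Pgam2 and 3.12 for Eno3. Its mean over the 10 centred enzymes was -0.14. HetDam_HetFetus replicate 4 also had the highest summed hepatocyte markers of the series (1.58 times the median of the libraries), the lowest summed erythroid markers (0.766 times), and the highest Pkm (6.26), Eno2 (0.28) and Eno1b (0.52). Pgam2, Eno3, Pkm, Eno2 and Eno1b were singled out after their values were seen. What part the muscle, hepatocyte or erythroid RNA had in its enzyme values was not tested.

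**Figure D2:**
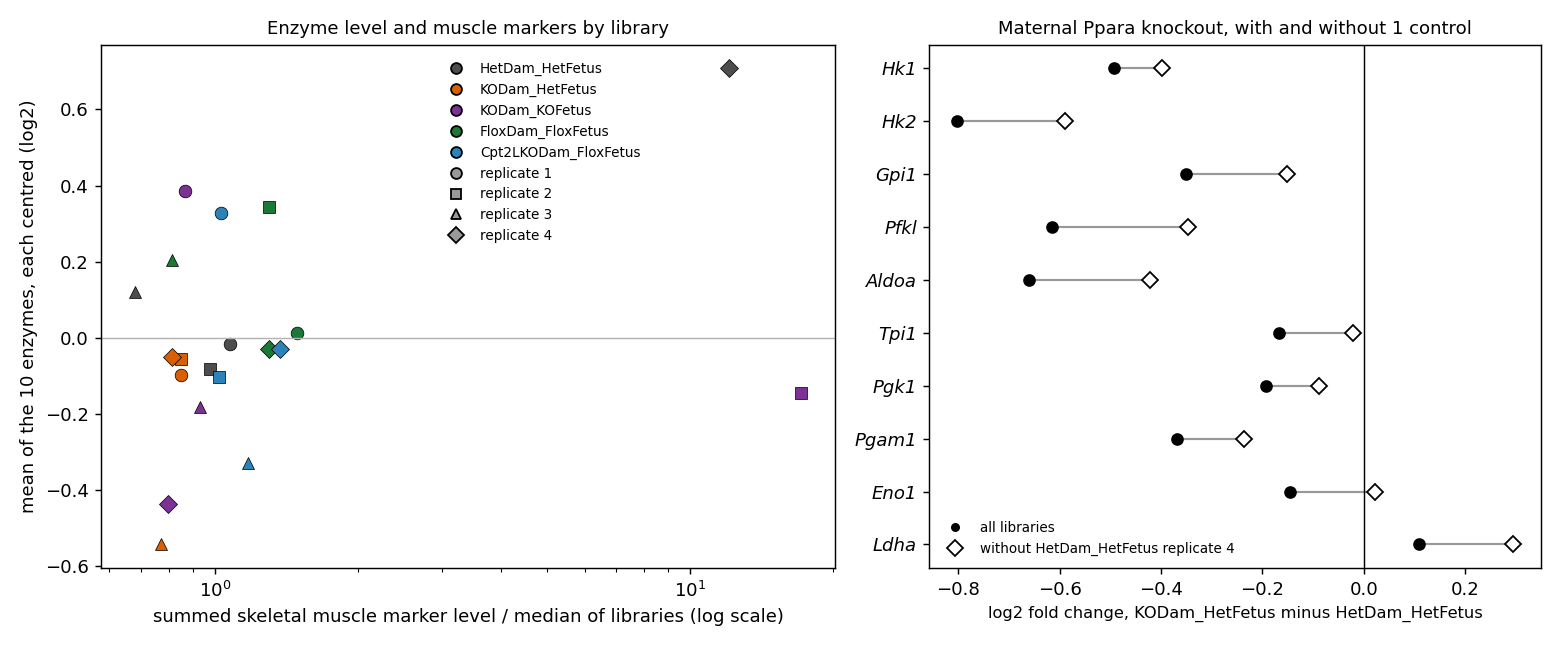
Left, the mean of the 10 centred enzymes in each library (log2, y axis) against the summed skeletal muscle markers relative to the median of the libraries (log scale, x axis), coloured by group. HetDam_HetFetus replicate 4 lies at 12.1 times and 0.71, and KODam_KOFetus replicate 2 at 17.1 times and -0.14. Right, log2 fold change of each enzyme in the maternal Ppara comparison with all libraries (circles) and without HetDam_HetFetus replicate 4 (diamonds), where Hk2 moves from -0.80 to -0.59 and Eno1 from -0.15 to 0.023.

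KODam_HetFetus replicates 1 and 2 share an unexplained number in the labels that may mark a litter. Omitting that pair leaves replicates 3 and 4 alone in the group, so a call can be lost through fewer fetuses as well as a smaller difference. Without that pair, Hk2 was at -1.22 with an adjusted p of 0.00890 by limma and Aldoa at -0.82 with 0.0664. The normalization also left the median of all genes at 0.14, and rescaling each library by a trimmed mean moved it to 0.028. The calls over all genes then went from 3117 higher and 1483 lower to 2286 higher and 2180 lower. Hk2 and Aldoa remained called after rescaling, at -0.92 and -0.78, and Ldha turned from 0.11 to -0.0065.

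Adding the fetus's own loss of Ppara, with the dam a knockout in both groups, changed none of the 10 enzymes by the test. No number that may mark a litter occurs in both groups, so fetal genotype cannot be told apart from dam and litter. This comparison of KODam_KOFetus with KODam_HetFetus called 0.822% of all tested genes, 0.0254% higher and 0.796% lower, and none of the enzymes. No enzyme reached an unadjusted p under 0.05, against 1287 of all 11805 tested genes. The median of the 10 was 0.063 on the log2 scale, against -0.015 for all tested genes. Hk2 read 1.59, 1.29, 1.45 and 1.11 in KODam_KOFetus, of which the last 3 lay inside the range of the heterozygous fetuses of knockout dams. Its log2 fold change was 0.56 ± 0.278 (SE), with a 95% interval from -0.017 to 1.14 and an adjusted p of 0.473 by limma. Aldoa was at 0.25 ± 0.250 (SE) and Hk1 at 0.26 ± 0.273 (SE). Hk1 had the widest spread of any enzyme in KODam_KOFetus, 5.21, 4.05, 3.95 and 3.34, with an SD of 0.781, and replicates 1 and 2 of this group share a number that may mark a litter. Ldha was at -0.16 ± 0.242 (SE), and the intervals of all 10 together ran from -0.67 to 1.14.

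Fetuses that lacked Ppara in a dam that lacked it had lower values than the heterozygous controls for all 10 enzymes, but none passed the test. This comparison of KODam_KOFetus with HetDam_HetFetus called 24.7% of all tested genes, 17.4% higher and 7.31% lower. Of all 11801 tested genes, 4596 had an unadjusted p under 0.05. The comparison shares its controls with the maternal comparison, so the direction of the pair is not independent. The estimates ran from -0.48 for Pfkl to -0.051 for Ldha, with a median of -0.25 against 0.14 for all tested genes. Gpi1, at 7.02, 6.60, 6.42 and 6.42 in KODam_KOFetus and 6.78, 6.78, 7.05 and 7.67 in the controls, was the 1 enzyme at an unadjusted p under 0.05. Its log2 fold change was -0.45 ± 0.214 (SE), with an adjusted p of 0.123 by limma, and the groups overlapped through KODam_KOFetus replicate 1. That replicate was the highest of its group for all 10 enzymes, and replicate 4 was the lowest for 8. Without replicate 1, Hk1 was called at -0.59 with an adjusted p of 0.0491 by limma, and 7 enzymes reached an unadjusted p under 0.05. How many of all tested genes did so without replicate 1 was not counted, so the 7 are not read as an excess. Without HetDam_HetFetus replicate 4, none was called and the median was -0.11. Side by side, the maternal comparison and this one gave -0.80 and -0.24 for Hk2, -0.66 and -0.41 for Aldoa, -0.62 and -0.48 for Pfkl, and -0.37 and -0.31 for Pgam1.

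**Figure D3:**
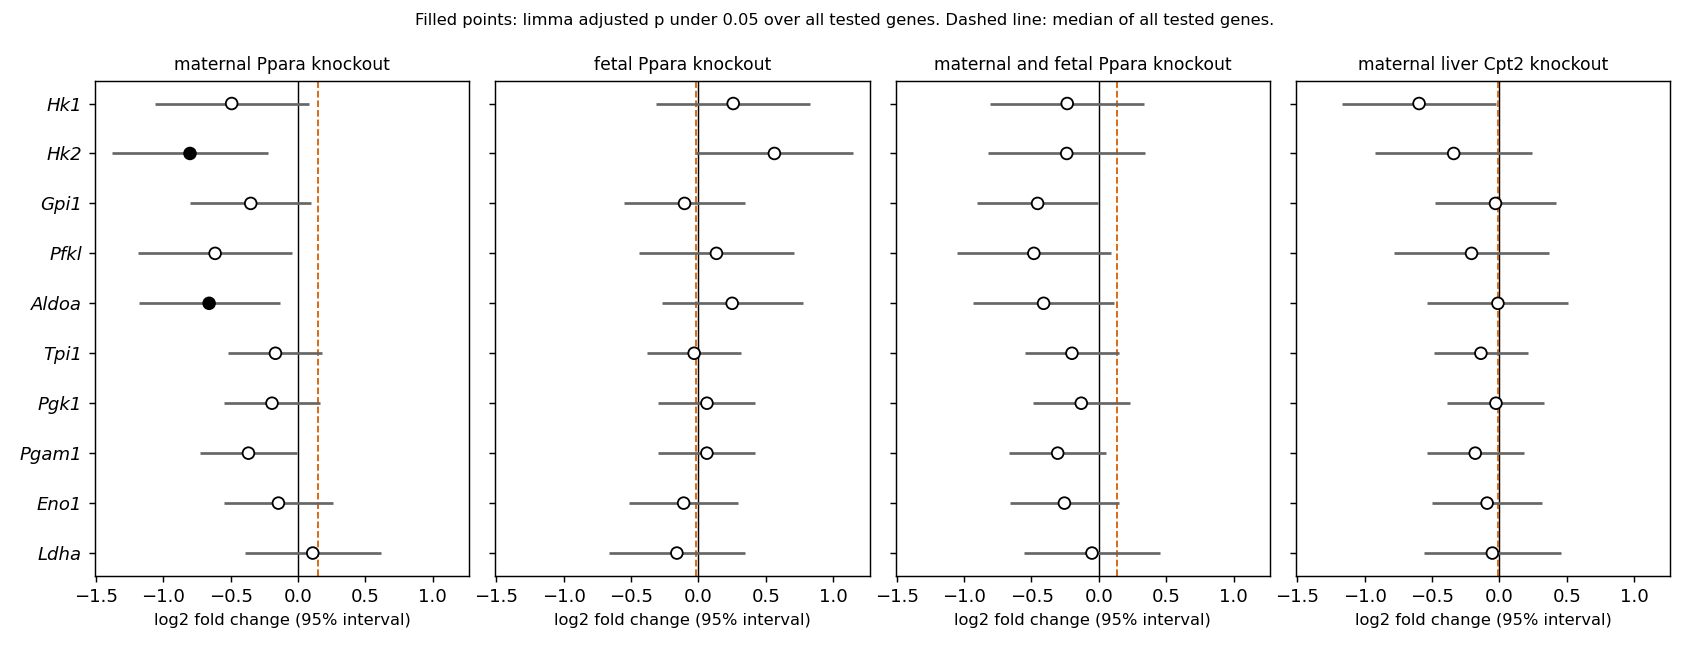
Log2 fold change of each enzyme with its 95% interval (x axis) in the 4 comparisons between groups, from limma. Filled points, Hk2 and Aldoa in the maternal Ppara comparison, have an adjusted p under 0.05; the dashed line is the median of all tested genes, 0.14 in the maternal Ppara comparison.

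Loss of Cpt2 from the dam's hepatocytes changed none of the 10 enzymes by the test. Cpt2LKODam_FloxFetus against FloxDam_FloxFetus called 0% of all tested genes, with 1311 of 11805 at an unadjusted p under 0.05. All 10 estimates were negative, from -0.60 for Hk1 to -0.010 for Aldoa, with a median of -0.11 against -0.0068 for all tested genes. Hk1 read 4.34, 4.34, 4.61 and 4.79 in FloxDam_FloxFetus and 3.92, 3.85, 4.03 and 3.90 in Cpt2LKODam_FloxFetus. These groups did not overlap, as was true of 6.04% of tested genes, and the Cpt2LKODam_FloxFetus values were close together, with an SD of 0.078. The log2 fold change of Hk1 was -0.60 ± 0.273 (SE), a fold of 0.662, with an unadjusted p of 0.0418 and an adjusted p of 0.436 by limma. Hk2 was at -0.34 ± 0.278 (SE), with 1.12, 1.56, 1.96 and 1.45 in FloxDam_FloxFetus and 1.61, 1.26, 0.92 and 0.94 in Cpt2LKODam_FloxFetus, so the groups overlapped. Pfkl, at -0.21 ± 0.274 (SE), and Pgam1, at -0.18 ± 0.172 (SE), came next, and the other 6 enzymes lay between -0.14 and -0.010. In Cpt2LKODam_FloxFetus, replicate 1 was the highest for 9 enzymes and replicate 3 the lowest for 9, the exception being Hk1 for both.

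Whether the dam's Ppara and the dam's Cpt2 had unequal effects was tested directly as the difference of these 2 changes, which called 0% of all tested genes, with 2343 of 11798 at an unadjusted p under 0.05. None of the 10 enzymes was called or reached an unadjusted p under 0.05. The difference was -0.46 ± 0.393 (SE) for Hk2, with an adjusted p of 0.515 by limma, and -0.65 ± 0.354 (SE) for Aldoa, with 0.307. So the calls of Hk2 and Aldoa in the Ppara comparison and not in the Cpt2 comparison do not show that the effects differ. The control groups themselves, HetDam_HetFetus minus FloxDam_FloxFetus, called 0.136% of all tested genes, 0.0593% higher and 0.0763% lower, and no enzyme, with a median of 0.019 for the enzymes and -0.15 for all tested genes.

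Across all 5 groups, the pooled SD between fetuses of a group ran from 0.247 for Tpi1 to 0.424 for Pfkl. The SD of the 5 group means, each a mean of 4 fetuses, ran from 0.067 for Ldha to 0.320 for Hk2. KODam_HetFetus had the lowest mean of the 5 groups for 6 enzymes and the highest for Ldha. HetDam_HetFetus had the highest mean for 5 and FloxDam_FloxFetus for 4, while KODam_KOFetus had the lowest for 3 and Cpt2LKODam_FloxFetus for Ldha. The enzymes differed in how near their centred values lay to those of the others, a distance that also grows with a gene's own spread. Measured as the root mean square difference of centred log2 values from the mean of the other 9 enzymes over 20 libraries, Pgam1 was nearest at 0.126, then Eno1 and Tpi1, both at 0.134. Hk1 and Hk2 were farthest, at 0.345 and 0.326, and also had the largest SD over the 20 libraries, 0.453 and 0.473. Among 11624 other genes with a value in every library, those nearest to the mean of the 10 enzymes by the same measure were Plrg1 at 0.168, Ero1l at 0.171, Ndfip2 at 0.174, Anxa2 at 0.183 and Hbs1l at 0.192.

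The libraries highest for most enzymes in HetDam_HetFetus, KODam_KOFetus, FloxDam_FloxFetus and Cpt2LKODam_FloxFetus were from males. So were the libraries lowest for 9 enzymes in KODam_HetFetus and Cpt2LKODam_FloxFetus and for 5 in HetDam_HetFetus. The library highest for 6 enzymes in KODam_HetFetus was from a female, as were those lowest for 8 in KODam_KOFetus and for 6 in FloxDam_FloxFetus. Over the 10 males and 10 females, with group in the fit, the comparison called 0.0508% of all tested genes, 0.0254% in each direction, and no enzyme. All 10 estimates were higher in males, with a median of 0.13 against -0.046 for all tested genes. Aldoa averaged 6.13 ± 0.469 (SD, n = 10) in males, from 5.40 to 6.97, and 5.75 ± 0.227 (SD, n = 10) in females, from 5.36 to 6.08. The difference was 0.38 ± 0.136 (SE), with an unadjusted p of 0.0116 and an adjusted p of 0.855 by limma. Aldoa was the 1 enzyme at an unadjusted p under 0.05, against 613 of all 11807 tested genes. Pgk1, which is on the X chromosome, averaged 7.74 ± 0.298 (SD, n = 10) in males and 7.69 ± 0.202 in females, and had a difference of 0.054 ± 0.111 (SE).

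Other enzymes of the pathway fell too when the dam lacked Ppara. On a list of 19 further glycolytic genes, 14 were tested, of which 1 rose and 6 fell, with a median of -0.29 against 0.14 for all tested genes. Over all tested genes, 26.4% were called higher and 12.6% lower. Hk3, a hexokinase of myeloid cells, read 2.38, 2.18, 2.18 and 2.30 in HetDam_HetFetus and 0.50, 1.06, 0.70 and 1.11 in KODam_HetFetus. The groups did not overlap, as was true of 36.3% of tested genes. The log2 fold change of Hk3 was -1.42 ± 0.228 (SE), with an adjusted p of 0.000281 by limma. Adpgk, an ADP-dependent glucokinase, fell by 1.07 on the log2 scale, and Hkdc1, a hexokinase domain protein, fell by 0.83. Bpgm, which makes the 2,3-bisphosphoglycerate of red cells, rose from 6.60 ± 0.098 to 7.10 ± 0.096 (SD, n = 4), a change of 0.50. Gapdh, which stands between Tpi1 and Pgk1 in the pathway and was named after its value was seen, fell by 0.50, with an adjusted p of 0.0355 by limma. Without HetDam_HetFetus replicate 4 the list had 1 gene higher and 3 lower, and the same counts came without the KODam_HetFetus pair that shares a number. The 26.4% and 12.6% are of the fit with all libraries and do not apply to these settings. Hk3, Adpgk, Hkdc1 and Bpgm kept their calls in all 19 alternatives run for them, while Gapdh lost its call in 9 of 19. Among these were litter as a random block, at an adjusted p of 0.0970 by limma, the omission of the KODam_HetFetus pair that shares a number, at 0.0789, and the omission of HetDam_HetFetus replicate 4, at 0.103.

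Some markers of other cells moved in the same comparison, in which 26.4% of all tested genes were called higher and 12.6% lower. Of 14 neutrophil and myeloid progenitor markers, 11 fell and none rose, and their summed linear level was 5513 to 8348 in HetDam_HetFetus and 3211 to 5393 in KODam_HetFetus. Of 25 cell cycle genes, 20 rose and none fell, and their sum was 687 to 921 in the controls and 1069.5 to 1674 in the fetuses of knockout dams. Of 13 erythroid markers 1 rose and none fell, of 15 hepatocyte markers 1 rose and 2 fell, and of 11 macrophage markers 1 rose and 4 fell. Of 7 tested B lymphoid markers 2 fell, and of 9 megakaryocyte and platelet markers 1 fell, with none higher in either list. Genes listed as markers of neighbouring organs moved as well. Whether their RNA came from those organs or from cells of the liver was not tested. The 2 tested kidney and adrenal markers both fell, Hsd3b1 by 2.86 and Cyp17a1 by 1.41 on the log2 scale, and the sum of the 10 on that list was 69.7 to 104.0 in the controls and 4.85 to 36.9 in KODam_HetFetus. Intestine and stomach markers summed to 356.0 to 611.5 in the controls and 107.4 to 248.3 in KODam_HetFetus, with 1 of the 4 tested higher and 1 lower. For both organ lists the sums did not overlap. Without the pair that shares a number, and so with fewer fetuses, the shares of 26.4% and 12.6% do not apply. In that setting 4 neutrophil and myeloid progenitor markers fell and 8 cell cycle genes rose. Their part in the changes of Hk2, Aldoa, Hk3 or the other enzymes was not tested.

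Glucose transporters went both ways. Of 17 genes of hexose and lactate transport and pyruvate entry, 2 rose and 3 fell. Over all tested genes, 26.4% were called higher and 12.6% lower. Slc2a2, the glucose transporter of hepatocytes, fell from 4.99 ± 0.385 to 3.88 ± 0.334 (SD, n = 4), by 1.10 on the log2 scale, with an adjusted p of 0.00404 by limma. Slc2a3, a high-affinity glucose transporter, fell by 0.80, and Slc2a9, a urate and hexose transporter, by 1.04. Slc2a4, the insulin-responsive glucose transporter of muscle and fat, rose from 2.31 ± 0.271 to 3.62 ± 0.178, by 1.32, and Slc2a1, the basal glucose transporter of many tissues, which was named after its value was seen, rose by 0.78. Slc2a2 and Slc2a1 lost their calls without the KODam_HetFetus pair that shares a number. They were then at -0.85 and 0.48, with adjusted p of 0.0667 and 0.186 by limma.

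Among these lists, the largest change was in the list of regulators, which also takes in genes of glycogen and of glycerol 3-phosphate. Of 16 tested, 2 rose and 4 fell, against 26.4% higher and 12.6% lower over all tested genes. Ppp1r3b, which targets protein phosphatase to liver glycogen, fell from 4.17 ± 0.443 to 1.25 ± 0.428 (SD, n = 4), by 2.92 on the log2 scale, with an adjusted p of 0.000269 by limma. Ppp1r3c, of the same family, fell by 2.13, and Pfkfb1, the liver enzyme that makes and removes the phosphofructokinase activator fructose 2,6-bisphosphate, fell from 4.11 ± 0.193 to 2.13 ± 0.706, by 1.99. Gpd2, the mitochondrial glycerol 3-phosphate dehydrogenase, rose by 1.06. With trimmed-mean scaling, 8 regulators fell and 2 rose, and without the pair that shares a number 2 fell and 2 rose. The shares of 26.4% and 12.6% do not apply to these settings. Ppp1r3c was among those lost without that pair, at -1.26 with an adjusted p of 0.0598 by limma.

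**Figure D4:**
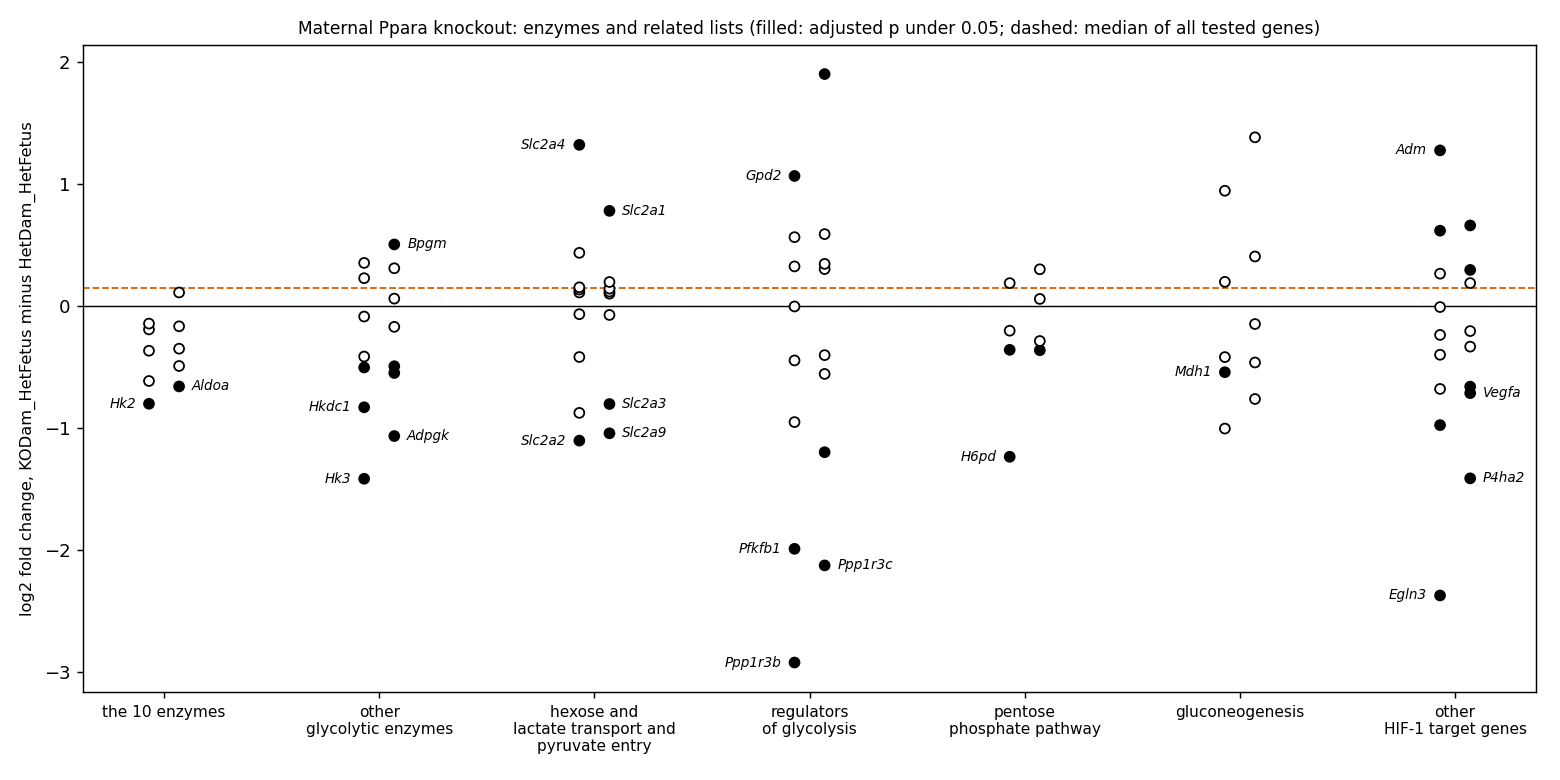
Log2 fold change in the maternal Ppara comparison (y axis) of the 10 enzymes and of 6 related gene lists (x axis), 1 point per tested gene, filled where the adjusted p was under 0.05. The dashed line is the median of all tested genes, 0.14. Filled points lie on both sides of 0 among transporters, regulators and HIF-1 targets, from -2.92 for Ppp1r3b to 1.90 for Txnip, and 2 of the 10 enzymes are filled.

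In the pentose phosphate pathway, which draws on glucose 6-phosphate, 3 of 8 genes fell and none rose, led by H6pd, the enzyme of the endoplasmic reticulum, which fell by 1.24. The list had 2 genes lower without HetDam_HetFetus replicate 4 and none without the KODam_HetFetus pair that shares a number. In gluconeogenesis 1 of 10 fell, Mdh1, a cytosolic malate dehydrogenase, by 0.54, which lost its call in 4 of 19 alternatives, the omission of that pair among them. Other known HIF-1 targets did not share a direction: of 17 tested, 4 rose and 5 fell. With the deposited values and all libraries, the counts of these lists are read against 26.4% of all tested genes called higher and 12.6% lower. Those shares do not apply to the counts given for other settings. Egln3, a prolyl hydroxylase that acts on HIF, fell by 2.37, P4ha2, a collagen prolyl hydroxylase, by 1.41, and Vegfa, the vascular growth factor, by 0.72, whereas Adm, the vasodilator adrenomedullin, rose by 1.27. With trimmed-mean scaling 1 of these targets rose and 6 fell, and without HetDam_HetFetus replicate 4, 2 rose and 4 fell. Without the pair that shares a number 1 rose and 3 fell, and P4ha2 lost its call, at -1.11 with an adjusted p of 0.0574 by limma.

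The same lists in KODam_KOFetus against HetDam_HetFetus, which shares those controls, gave 1 further glycolytic gene higher and 5 lower, 1 transporter higher and 4 lower, and 5 regulators lower with none higher. Over all tested genes, this comparison called 17.4% higher and 7.31% lower. Hkdc1 fell by 1.34, Hk3 by 0.99, Gapdh by 0.78 and Aldoc, the brain-type aldolase, by 0.74. Slc2a2 fell by 1.37 and Slc2a4 rose by 1.10, while Pfkfb1 fell by 1.69 and Ppp1r3b by 2.23. In gluconeogenesis 3 genes fell: Mdh1, Fbp1, the fructose bisphosphatase that opposes phosphofructokinase, and Got1. Fbp1 lost its call in 9 of 19 alternatives and Got1 in 14, both with litter as a random block, at adjusted p of 0.127 and 0.0887 by limma, and Mdh1 lost it in 2. Without HetDam_HetFetus replicate 4 there were 4 further glycolytic genes lower and none higher, 3 regulators lower and 1 gluconeogenic gene lower. The 17.4% and 7.31% are of the fit with all libraries and do not apply to that setting. In KODam_KOFetus against KODam_HetFetus, which called 0.822% of all tested genes, 1 gene of these lists was called. It was Slc16a7, a monocarboxylate transporter, which fell by 0.95 with an adjusted p of 0.0423 by limma. Its call was lost in 13 of 19 alternatives. In the maternal liver Cpt2 comparison, which called 0% of all tested genes, no gene of any of these lists was called.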

How the data were processed

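RNA of 20 fetal livers was extracted with Trizol and a column, made into stranded poly(A) libraries and sequenced as single reads of 75 nucleotides, per the labels' protocols. The build was GRCm38.p6, and the tools included Partek 7.0 and bcl2fastq 2.17.1.14, per the submitters' processing notes. The table deposited by the authors holds log2 values, quantile normalized per library, since every library has the same quantiles. The log base was taken from the range of the values. For the alignment, the counting, the use of strand and what was measured before taking logs, nothing is stated (not given in the sources used here). No count test was possible, and reads shared with near-identical copies such as Pgam1-ps2 cannot be traced. Genes with a linear value of at least 1 in at least 4 libraries were tested with limma 3.58.1 in R 4.3.3 (a mean per group, trend of variance on mean, 15 residual degrees of freedom and 4.09 from the prior), two-sided, with Benjamini-Hochberg adjustment over all tested genes of each of 7 comparisons. A self-test for the maternal Ppara comparison was run on simulated data for 11634 genes, with 50 genes changed at each size. It recovered 18% of genes changed by 0.5, 78% by 1, 92% by 2 and 100% by 4 on the log2 scale. The measured comparison called 39.0% of tested genes, a far larger share, so these rates do not measure its power. Replicates are fetuses of 3 or 4 presumed litters a group, so p-values measure the spread between fetuses. Named are the 10 enzymes, up to 4 called genes per list with the smallest p, and the 5 nearest genes. Blank cells were read as no value. Promoters are from RefSeq. The enzymes and lists were chosen with earlier results of these data known.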

Additional observations from a re-analysis of the deposited data

Results flagged for a closer look

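In groups of 4, a library was picked out where its gap to the nearest other library as a share of the group's range exceeded Dixon's 95% critical value. Of 50 groups of 4 (10 enzymes in 5 groups), 5 met this, and chance gives about 1 in 20. HetDam_HetFetus replicate 4 stood above its group for Pfkl (5.31), Aldoa (6.97), Tpi1 (8.16) and Eno1 (8.09). KODam_HetFetus replicate 3 stood below its group for Tpi1 (7.30). The 4 high values come from 1 library, which also carried skeletal muscle markers, and what part these had was not tested.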

How the results depend on the processing

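Of the 10 enzymes, 2 were called in the maternal Ppara comparison. There was 1 without the filter (Hk2), 1 with only the groups compared in the fit (Aldoa), 1 without the presumed KODam_HetFetus littermates (Hk2) and 0 without the libraries with transcripts of other tissues. Leaving out 1 library at a time gave 0 to 2, and in the comparison of KODam_KOFetus with HetDam_HetFetus 0 to 1. The counts of the other 5 comparisons were 0 in every setting run. Both scalings, both pseudocounts, fetal sex and litter as a random block (consensus correlation 0.568) left Hk2 and Aldoa called. With a replicate block Hk2 was at -0.80 (adjusted p by limma 0.0406) and Aldoa at -0.66 (0.0367), and the count was 2. Same-numbered libraries of different groups correlated at -0.378 to 0.482 over 40 pairs, 16 of them over 0.1, and 4 of 20 libraries correlated best with their own number, so the numbers were not taken to pair the samples.

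Among 872 recomputed values for single enzymes, 38 changed sign, none of them at an adjusted p under 0.05, and the cause was not tested. With trimmed-mean scaling Ldha was at -0.0065 (maternal Ppara) and Aldoa at 0.0040 (maternal liver Cpt2). With litter as a random block Pgk1 was at -0.0038 (fetal Ppara). Without the littermates Tpi1 was at 0.0463 and Pgk1 at -0.0661 (fetal Ppara). Without the libraries with other tissues Eno1 was at 0.0229 (maternal Ppara), Ldha at 0.1659 (maternal and fetal Ppara), Gpi1 at 0.0525 and Ldha at 0.0391 (maternal liver Cpt2). With 1 library left out, maternal liver Cpt2 estimates ran from -0.1595 to 0.117 for Gpi1, -0.1834 to 0.1619 for Aldoa, -0.1495 to 0.0826 for Pgk1, -0.1925 to 0.0551 for Eno1 and -0.2323 to 0.1107 for Ldha. Fetal Ppara estimates ran from -0.1002 to 0.5228 for Hk1, -0.0896 to 0.2583 for Pfkl, -0.1893 to 0.0419 for Tpi1, -0.0478 to 0.1752 for Pgk1, -0.0744 to 0.1844 for Pgam1 and -0.2803 to 0.0095 for Ldha. Estimates for KODam_KOFetus against HetDam_HetFetus ran from -0.5929 to 0.0301 for Hk1 and -0.1712 to 0.1336 for Ldha, and maternal Ppara estimates from -0.2305 to 0.0229 for Eno1. Depth is unknown, so its limit on low values such as Hk2 cannot be stated.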

Other observations

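Pgam1-ps2, an entry named as a pseudogene of Pgam1, ranged from -2.30 to 5.10 over the 20 libraries. Over the same libraries Pgam1 itself ranged from 6.78 to 7.96, a span of 1.18. How reads that match both were assigned is not given in the sources used here.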
